A study of Rattus norvegicus with 6 samples.

Results

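Transcripts of 5 matrix metalloproteinases and of a metalloproteinase inhibitor were followed in cultured rat tenocytes, the resident fibroblasts of tendon. The genes were taken by their Ensembl identifiers and are Mmp2 (ENSRNOG00000016695), Mmp3 (ENSRNOG00000032626), Mmp9 (ENSRNOG00000017539), Mmp13 (ENSRNOG00000008478), Mmp14 (ENSRNOG00000010947) and Timp1 (ENSRNOG00000010208). All 6 were present among the 19133 genes of the deposited table. The cells came from Achilles tendons of Sprague–Dawley rats and were kept either in complete medium alone (control group, n = 3 libraries) or for 24 h in complete medium with IL−1β, an inflammatory cytokine, at 50 ng/mL (IL−1β group, n = 3 libraries). The tendons had been digested with collagenase before culture, and both groups share this step and the serum-containing medium. The sources used here give no age or sex for the donor animals of the cells and do not say whether the 3 libraries of a group come from separate animals. The study's methods describe its data as coming from independent experiments, and the labels do not tie a library to a culture. The p-values therefore rest on variation between libraries, and whether this includes variation between animals is not known. These are bulk libraries, in which more RNA per cell and more cells that make it cannot be told apart. Tenocyte markers and markers of other cells were not analysed here, since the table lists genes by identifier alone.

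Matrix metalloproteinases are zinc-dependent endopeptidases that are made as inactive proenzymes and cut the proteins of the extracellular matrix once their propeptide is removed. Tendon consists mainly of fibrillar collagen, so the collagenases among them, the gelatinases that take over the denatured collagen, and the stromelysins that cut other matrix proteins and activate proenzymes have long been studied in tendon turnover and disease. Timp1, tissue inhibitor of metalloproteinases, is a secreted protein that binds the active site of many metalloproteinases. How well it inhibits each of the enzymes followed here was not measured. The proteases are also controlled by activation and inhibition of the protein, which transcript levels do not show.

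The genes fell into 2 sets by their level in control cells. Mmp2, Mmp14 and Timp1 were among the most abundant transcripts without IL−1β, whereas Mmp3, Mmp9 and Mmp13 were close to the lower end of the genes that could be tested. With IL−1β the first 3 rose by less than 2-fold and the other 3 by more than 100-fold on the log2(FPKM + 0.1) scale. The upstream sequences of Mmp3, Mmp13 and Timp1 are shown first, because these genes had an entry in the sequence table. Mmp3 and Mmp13 are among the genes with the large rise and Timp1 among those with the small rise. Whether the sequences relate to the size of the rise was not tested. They are the 250 bases before the transcription start, from RefSeq on the GRCr8 assembly, 5′ to 3′ on the strand of the gene. Capitals mark TGAGTCA or its reverse complement TGACTCA, a site known to be bound by AP-1, a transcription factor of the Fos and Jun families. Of the 6 genes, 3 had an entry in the sequence table, and no sequence is shown for Mmp2, Mmp9 and Mmp14.
Mmp3, chr8:12925031-12925280, plus strand: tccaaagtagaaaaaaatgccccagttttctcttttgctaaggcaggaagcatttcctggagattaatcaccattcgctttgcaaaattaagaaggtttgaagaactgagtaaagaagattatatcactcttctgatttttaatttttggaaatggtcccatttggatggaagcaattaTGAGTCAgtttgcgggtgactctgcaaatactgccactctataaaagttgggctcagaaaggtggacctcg
Mmp13, chr8:12782579-12782828, plus strand: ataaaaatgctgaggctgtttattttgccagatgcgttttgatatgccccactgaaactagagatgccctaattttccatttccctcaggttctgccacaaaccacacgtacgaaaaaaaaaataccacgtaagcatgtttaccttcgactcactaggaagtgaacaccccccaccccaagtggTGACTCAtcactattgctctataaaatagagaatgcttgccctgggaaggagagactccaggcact
Timp1, chrX:3771123-3771372, minus strand: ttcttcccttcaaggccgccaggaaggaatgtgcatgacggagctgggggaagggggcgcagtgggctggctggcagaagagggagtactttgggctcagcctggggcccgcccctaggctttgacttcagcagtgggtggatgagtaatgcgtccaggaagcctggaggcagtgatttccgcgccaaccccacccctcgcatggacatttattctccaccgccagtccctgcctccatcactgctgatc

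In Mmp3 the match occupied the bases 71 to 65 upstream of the start (the base next to the start counts as 1), and in Mmp13 the bases 66 to 60. In this 250-base window, 4.05% of the 33469 promoters of the table held the motif on either strand. No exact match was found in the window of Timp1. That window holds the similar sequence TGAGTAA, as does that of Mmp3. Variants of the motif were not searched, so a window without the exact motif cannot be said to lack an AP-1 site. TATAAA, added to the search after the sequences were read, lay 32 to 27 bases upstream in Mmp3 and 47 to 42 bases upstream in Mmp13. Both matches are on the strand of the gene. Of all windows, 12.9% held TATAAA on either strand and at any position, which is a wider condition. The NF-kB consensus, searched on both strands, had no match in the 3 windows, and 6.33% of all windows held it. These are matches of letters and not measured binding sites. In the same assembly Mmp13 and Mmp3 lie in the metalloproteinase cluster of chromosome 8 with 2 protein-coding genes between them, Mmp12 and Mmp1b. Timp1 lies within the span of Syn1, a neuronal gene. The strand setting of the read counting is not given in the sources used here, so reads of Syn1 and Timp1 in this span cannot be told apart. Mmp3 and Mmp10 are close paralogues, and reads that match both could have been split or dropped by the counting.

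Levels are given in FPKM, the fragment count of a gene divided by its length and by the depth of the library, which allows genes of different length to be set side by side. The implied depth was between 36619503 and 43227283 fragments per library, and the ranges of the groups overlapped. Whole read counts were recovered for the 6 genes from the steps of the FPKM values. Detection was set at 3 reads, which for these genes corresponds to at most 0.111 FPKM (Timp1) and covers counting error only, and each gene exceeded it in each library. For the test, FPKM values were scaled between libraries, 0.1 was added and log2 was taken, and the groups were compared with limma over the 12408 genes that reached 0.5 FPKM in 3 or more libraries. All 6 genes passed this filter, Mmp13 through its IL−1β libraries alone, so that a difference between groups was a condition of its being tested. Fold changes are on this log2(FPKM + 0.1) scale, where a change from a low level is understated, and are given with their standard error (SE) and a p-value adjusted by the Benjamini-Hochberg method over all tested genes. Limma draws the variance of each gene toward that of genes of similar level. The SE, interval and p-value of a gene are therefore not set by its own spread alone. A gene was called when the adjusted p was under 0.05 and the absolute log2 fold change over 1, the thresholds used in the study.

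All 6 genes were higher with IL−1β, and all 6 had an adjusted p under 0.05 in limma. Across all tested genes, 19.3% met this in the upward direction. Mmp3, Mmp9 and Mmp13 also passed the fold threshold, so 3 of 6 were called as upregulated, where 5.37% of all tested genes were. The median log2 fold change was 4.18 over the 6 genes and 0.0007 over all tested genes, but no member lay near this median. The study had named Mmp3, Mmp9 and Mmp13 as raised by IL−1β from these libraries, so their direction here is not independent evidence. It also reported their upregulation by qPCR and measured their proteins by Western blot, which were not examined here. In all 6 genes the lowest IL−1β library lay above the highest control library, as did 25.5% of all tested genes. Mmp13 was tested only because its 3 IL−1β libraries reached the filter that its control libraries did not. Its direction and lack of overlap were thereby fixed, so Mmp13 adds no support to these counts. An exact two-sided permutation test of 3 libraries against 3 gave p = 0.10 for each of the 6 genes, which is the smallest value it can give.

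**Figure D1:**
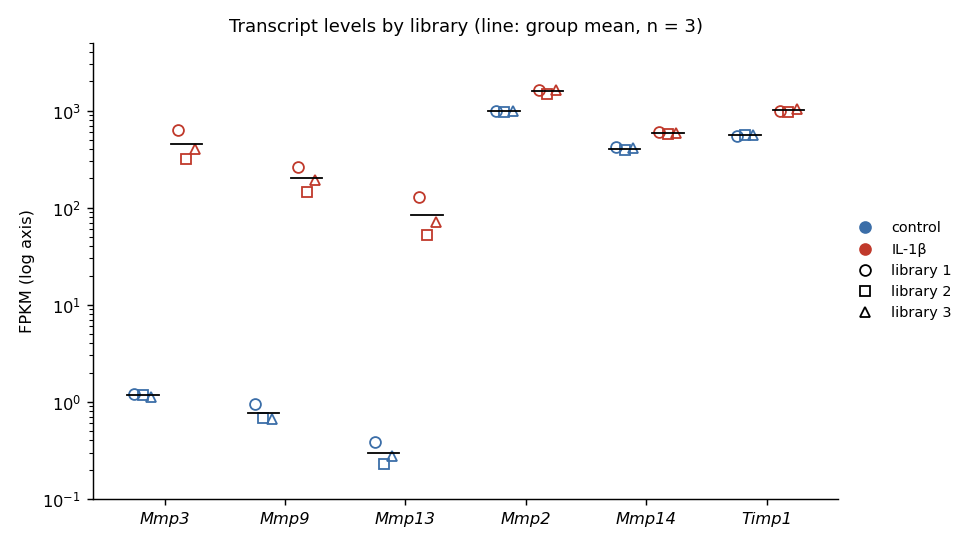
FPKM of each gene (log axis) in the 3 control libraries (blue) and the 3 IL−1β libraries (red), with the library number as the marker shape and a line at the group mean. Mmp3, Mmp9 and Mmp13 lie between 0.231 and 1.21 FPKM in the control group and between 52.4 and 634 FPKM in the IL−1β group, whereas Mmp2, Mmp14 and Timp1 are at 390.6 FPKM or more in all 6 libraries.

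Mmp3 encodes stromelysin-1, which cuts proteoglycans and other matrix proteins and activates other proenzymes. It measured 1.21, 1.18 and 1.12 FPKM in control libraries 1, 2 and 3 and 634, 316 and 404 FPKM in IL−1β libraries 1, 2 and 3. The control libraries lay close together, and the lowest IL−1β library was still 261 times the highest control library. Behind these values were between 74 and 80 reads per control library and between 23352 and 40237 reads per IL−1β library. The group means were 1.17 ± 0.047 and 451 ± 164 FPKM (SD, n = 3 each), and the log2 fold change was 8.36 (SE 0.23, 95% interval 7.81 to 8.90, adjusted p = 5.3e-07 from limma). By mean FPKM the gene ranked 10973 among the 19133 genes without IL−1β and 147 with it. Its rise was the ninth largest among the tested genes.

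Mmp9 encodes gelatinase B, which cuts denatured collagen and basement membrane collagen. Its FPKM was 0.953, 0.676 and 0.668 in control libraries 1 to 3 and 263, 147 and 192 in IL−1β libraries 1 to 3. Library 1 was the highest in both groups, and the groups were far apart. The read counts were 116, 78 and 88 in the control libraries and 30776, 19957 and 22223 in the IL−1β libraries. The means were 0.765 ± 0.162 and 200.3 ± 58.6 FPKM (SD, n = 3 each), with a log2 fold change of 7.77 (SE 0.23, 95% interval 7.24 to 8.31, adjusted p = 6.5e-07 from limma). It moved from rank 11558 to rank 350 by mean FPKM.

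Mmp13 encodes collagenase 3, the main interstitial collagenase of rodents, which cuts intact fibrillar collagen. It was the lowest member in both groups, with 0.388, 0.231 and 0.276 FPKM in control libraries 1 to 3 and 129, 52.4 and 70.3 FPKM in IL−1β libraries 1 to 3. Again library 1 was the highest of each group and library 2 the lowest. The control values rest on 39, 22 and 30 reads. Their exact 95% Poisson intervals (27.7 to 53.3, 13.8 to 33.3 and 20.2 to 42.8, for counting error only) overlap. The order of the control libraries therefore rests on few reads, and it was not tested. The IL−1β values rest on 12458, 5898 and 6741 reads. The means were 0.298 ± 0.081 and 83.9 ± 39.9 FPKM (SD, n = 3 each), and the log2 fold change was 7.58 (SE 0.32, 95% interval 6.82 to 8.35, adjusted p = 3.5e-06 from limma). Its rank by mean FPKM went from 12849 to 913.

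The 95% intervals of the 3 large fold changes overlapped, and their order was not tested. Their size depended on the constant added before log2, because the control levels were so low. With 1 FPKM added in place of 0.1, the log2 fold change was 7.59 for Mmp3, 6.75 for Mmp9 and 5.89 for Mmp13. Limma's TREAT test, which asks whether a change exceeds 2-fold, also called these 3 genes (adjusted p = 1.3e-06, 1.8e-06 and 1.3e-05) and called 2.89% of all tested genes in the upward direction. For Mmp13 the filter again required the IL−1β libraries to be the higher ones.

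**Figure D2:**
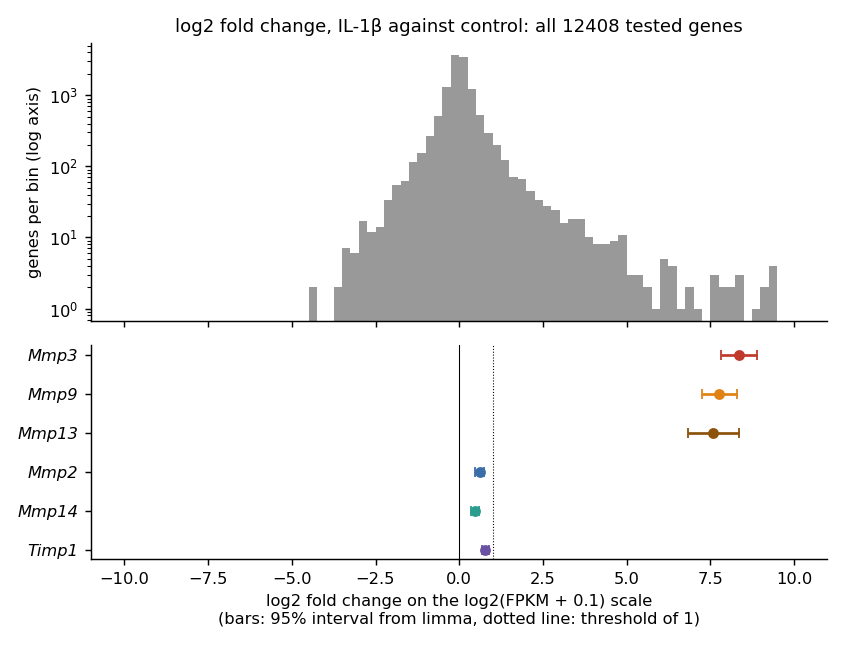
The upper panel gives the number of tested genes (log axis) in bins of log2 fold change, IL−1β against control, and the lower panel the 6 genes with their 95% interval from limma on the same horizontal axis. Mmp3, Mmp9 and Mmp13 lie at 8.36, 7.77 and 7.58 in the sparse right tail, and the intervals of Mmp2, Mmp14 and Timp1 lie between 0 and the threshold of 1.

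Mmp2 encodes gelatinase A, which cuts denatured collagen and is made constitutively by many fibroblasts. It was the most abundant member in each library, with 995, 969.7 and 985 FPKM in control libraries 1 to 3 and 1616, 1469.7 and 1629.55 FPKM in IL−1β libraries 1 to 3. The control libraries lay within 1.03 times of each other, and the lowest IL−1β library was 1.48 times the highest control library. The means were 983 ± 12.8 and 1572 ± 88.6 FPKM (SD, n = 3 each). The log2 fold change was 0.62 (SE 0.06, 95% interval 0.48 to 0.76, adjusted p = 0.00017 from limma), which is 1.53-fold. The gene ranked 54 by mean FPKM without IL−1β and 38 with it.

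Mmp14 encodes a metalloproteinase anchored in the cell membrane, which cuts collagen at the cell surface and activates the Mmp2 proenzyme. Control libraries 1 to 3 gave 419.6, 390.6 and 407 FPKM, and IL−1β libraries 1 to 3 gave 598, 568 and 591 FPKM. The groups did not overlap, and the gap between them was larger than the spread within either. The means were 406 ± 14.5 and 586 ± 15.5 FPKM (SD, n = 3 each). Its log2 fold change was the smallest of the set at 0.47 (SE 0.05, 95% interval 0.35 to 0.59, adjusted p = 0.00033 from limma), which is 1.39-fold.

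Timp1, the inhibitor, measured 549, 565 and 565 FPKM in control libraries 1 to 3 and 985, 973 and 1049 FPKM in IL−1β libraries 1 to 3. The lowest IL−1β library was 1.72 times the highest control library. The means were 559.9 ± 9.22 and 1002 ± 40.8 FPKM (SD, n = 3 each), and the log2 fold change was 0.78 (SE 0.04, 95% interval 0.68 to 0.89, adjusted p = 1.3e-05 from limma), which is 1.72-fold. Its rank by mean FPKM went from 101 to 56.

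The upper bounds of these 3 intervals were below a log2 fold change of 1, and none of the 3 genes passed the fold threshold. By size they were in the upper part of all changes. Timp1 ranked 979, Mmp2 1258 and Mmp14 1640 by log2 fold change among the 12408 tested genes, and 92.1%, 89.9% and 86.8% of these genes had a smaller value. Among the 127 tested genes whose mean FPKM over all libraries was at least that of Mmp14, a cut chosen after the values were seen, 26 (20.5%) were higher with an adjusted p under 0.05, close to the 19.3% of all tested genes. Mmp2, Mmp14 and Timp1 are 3 of these 26. By size, 17 of the 127 had a log2 fold change above that of Mmp14.

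On the linear scale the order was different from that of the fold changes. The mean level of Mmp2 rose by 588 FPKM, that of Mmp3 by 450.02, that of Timp1 by 442, that of Mmp9 by 199.6, that of Mmp14 by 180.2 and that of Mmp13 by 83.6. The order of the levels in the control group was Mmp2, Timp1, Mmp14, Mmp3, Mmp9 and Mmp13, and no neighbours in this order overlapped between libraries. The control values of Mmp3, Mmp9 and Mmp13 rest on at most 116 reads per library, and this order leaves their counting error aside. In the IL−1β group the order of the means was Mmp2, Timp1, Mmp14, Mmp3, Mmp9 and Mmp13 again. Here the neighbours Mmp14 and Mmp3 overlapped, since Mmp3 exceeded Mmp14 in library 1 (634 against 598 FPKM) and lay below it in libraries 2 and 3. Among the other neighbours the libraries did not overlap.

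The 5 metalloproteinase genes together measured 1417, 1362 and 1394 FPKM in control libraries 1 to 3 and 3239, 2553 and 2886 FPKM in IL−1β libraries 1 to 3. The mean sum was 2.08 times as high in the IL−1β group. In the control group Mmp2 made up 70.7% ± 0.48 of the sum and Mmp14 29.2% ± 0.47 (SD, n = 3), and the other 3 genes together 0.160% ± 0.017. With IL−1β the share of Mmp2 was 54.6% ± 4.15, that of Mmp14 20.4% ± 1.90 and that of Mmp3 15.3% ± 3.77. Mmp9 then held 6.83% ± 1.20 and Mmp13 2.82% ± 1.02. Mmp3, Mmp9 and Mmp13 together held 31.7%, 20.2% and 23.1% of the sum in IL−1β libraries 1 to 3. All 6 genes, Timp1 included, accounted for 0.444% ± 0.007 of recovered reads without IL−1β and 0.864% ± 0.082 with it. These shares describe a chosen set of genes and were not tested.

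**Figure D3:**
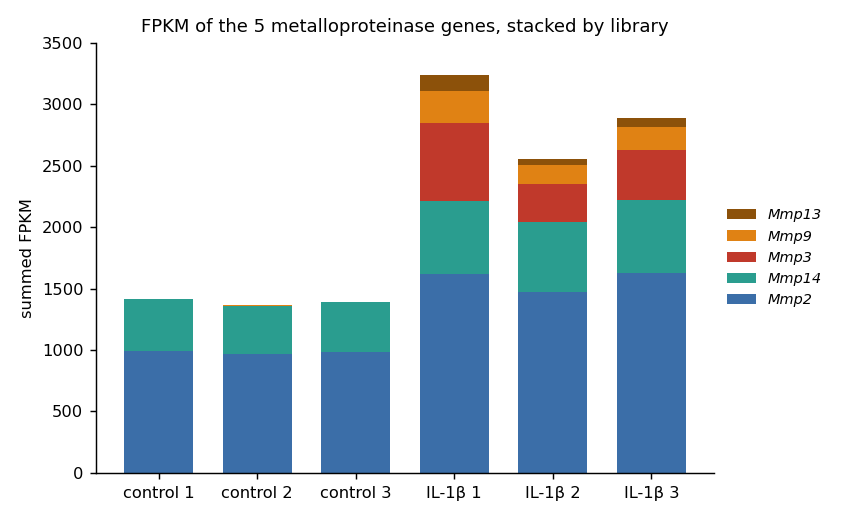
Bars show the FPKM of the 5 metalloproteinase genes stacked for each of the 6 libraries, from 0. The sum is between 1362 and 1417 FPKM in the control libraries, almost all of it Mmp2 and Mmp14, and between 2553 and 3239 FPKM in the IL−1β libraries, where Mmp3 and Mmp9 form visible layers.

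Each metalloproteinase was then set against Timp1 within the same library, as a description. A ratio of transcripts does not show how far Timp1 inhibits a given enzyme, Mmp14 included. Mmp3 was at 0.0022, 0.0021 and 0.0020 times the Timp1 level in control libraries 1 to 3 and at 0.643, 0.325 and 0.385 times in IL−1β libraries 1 to 3, which is a 206-fold difference between the geometric means. The Mmp9 to Timp1 ratio was between 0.0012 and 0.0017 without IL−1β and between 0.151 and 0.267 with it (144-fold). The ratio of Mmp13 to Timp1 was between 0.00041 and 0.00071 without and between 0.0539 and 0.131 with IL−1β (149.8-fold). None of these 3 transcripts reached the level of Timp1 in any library.

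The ratios of the constitutive proteases went the other way. Mmp2 was at 1.81, 1.72 and 1.74 times the Timp1 level in control libraries 1 to 3 and at 1.64, 1.51 and 1.55 times in IL−1β libraries 1 to 3, without overlap. The Mmp14 to Timp1 ratio was 0.764, 0.691 and 0.719 in the control libraries and 0.607, 0.584 and 0.563 in the IL−1β libraries, again without overlap. The geometric means with IL−1β were 0.892 times the control value for Mmp2 and 0.807 times for Mmp14. Transcripts of the inhibitor rose by a larger factor than those of Mmp2 and Mmp14 and by a far smaller factor than those of Mmp3, Mmp9 and Mmp13. The sum of the 5 metalloproteinases was 2.49 ± 0.087 times the Timp1 level without IL−1β and 2.89 ± 0.353 times with it (n = 3 libraries each, SD). For this sum the lowest IL−1β library (2.62) lay only slightly above the highest control library (2.58).

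**Figure D4:**
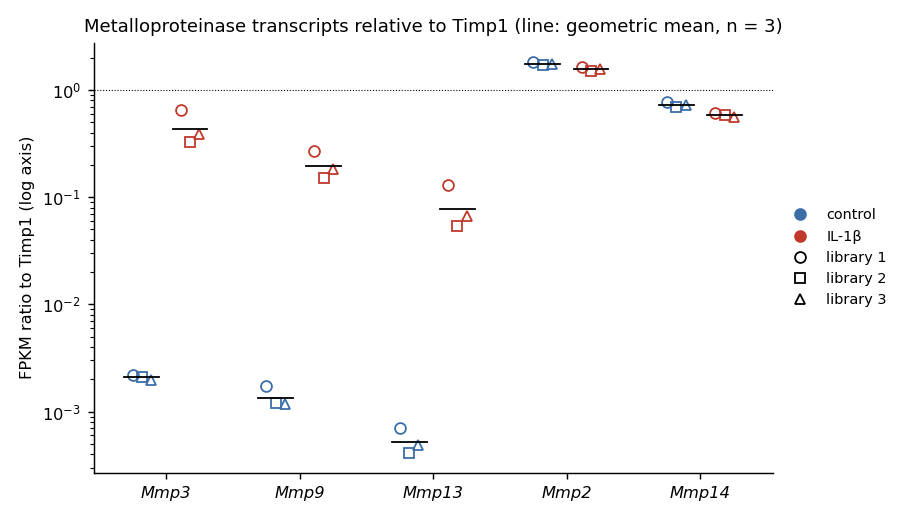
Ratio of the FPKM of each metalloproteinase to that of Timp1 in the same library (log axis), control in blue and IL−1β in red, with the library number as the marker shape, a line at the geometric mean and a dotted line at 1. The ratios of Mmp3, Mmp9 and Mmp13 are 206, 144 and 149.8 times as high with IL−1β, whereas those of Mmp2 and Mmp14 are slightly lower.

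The IL−1β libraries differed among themselves in Mmp3, Mmp9 and Mmp13 and hardly in the other 3 genes. The SD of the log2 values in the IL−1β group was 0.53 for Mmp3, 0.44 for Mmp9 and 0.68 for Mmp13, against a median of 0.10 over all tested genes and of 0.17 over the 666 upregulated genes. Their SD was larger than that of 95.8%, 94.6% and 97.1% of all tested genes. It was 0.09 for Mmp2, 0.05 for Mmp14 and 0.05 for Timp1. In IL−1β library 1, Mmp3 was at 2.00 times, Mmp9 at 1.79 times and Mmp13 at 2.46 times its level in library 2, and in all 3 genes the order was library 1, library 3 and library 2. The same 2 libraries differed by 1.10 times in Mmp2, 1.05 times in Mmp14 and 1.01 times in Timp1. Library 1 held the highest value of the group in 66.8% of the upregulated genes. What sets library 1 apart was not tested. Without it, the log2 fold change was 8.07 for Mmp3, 7.55 for Mmp9 and 7.21 for Mmp13, and all 3 stayed past both thresholds.

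**Figure D5:**
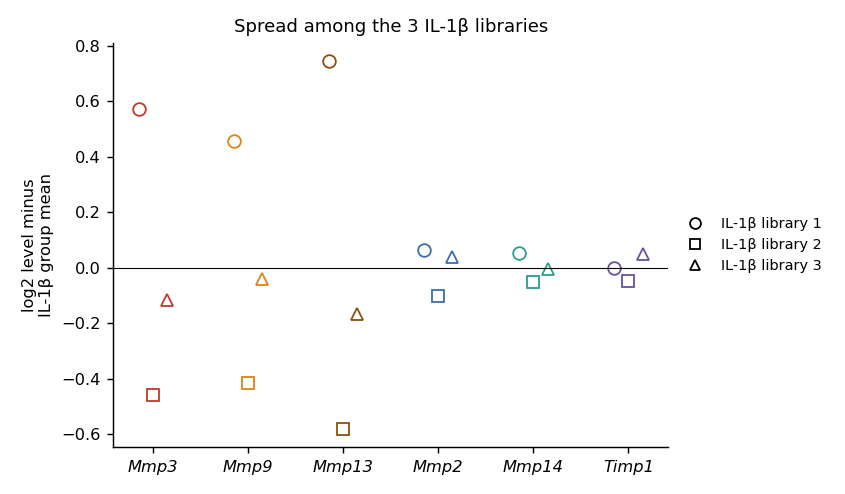
Difference of each IL−1β library from the mean of the 3 IL−1β libraries, in log2 units, for the 6 genes, with the library number as the marker shape. Library 1 lies between 0.46 and 0.74 above the mean for Mmp3, Mmp9 and Mmp13 and library 2 between 0.42 and 0.58 below it, while the values of the other 3 genes stay within about 0.10 of the mean.

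Within the IL−1β group, the ratios of the 3 genes to each other varied less than their levels did. The Mmp3 to Mmp9 ratio was 2.41, 2.16 and 2.11 in IL−1β libraries 1 to 3, with an SD of 0.10 on the log2 scale. It was 1.27, 1.75 and 1.68 in the control libraries, below each IL−1β library. The Mmp3 to Mmp13 ratio was 4.92, 6.03 and 5.74 in the IL−1β libraries and 3.12, 5.12 and 4.06 in the control libraries, and these overlapped. The Mmp9 to Mmp13 ratio was 2.04, 2.80 and 2.72 in the IL−1β libraries and 2.46, 2.93 and 2.42 in the control libraries, and these overlapped as well. The control ratios carry the counting error of 74 to 80 Mmp3 reads, 78 to 116 Mmp9 reads and 22 to 39 Mmp13 reads per library. Whether the Mmp3 to Mmp9 ratio differed between the groups was not tested.

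The genes with the most similar pattern were sought among all tested genes by the Euclidean distance of the 6 log2 values, after the control mean of each gene was subtracted. The gene nearest to Mmp9 was Mmp13, at a distance of 0.51 log2 units over the 6 libraries. Mmp9 was in turn the second nearest to Mmp13, behind ENSRNOG00000032832 at a distance of 0.47. This gene measured 0.167, 0.176 and 0.168 FPKM in control libraries 1 to 3 and 79.6, 36.6 and 47.6 FPKM in IL−1β libraries 1 to 3. Like Mmp13, it passed the filter on low values through the IL−1β libraries alone. Nearest to Mmp3 was ENSRNOG00000007159 at a distance of 0.75, with between 7.78 and 9.32 FPKM in the control libraries and between 3062 and 3152 FPKM in the IL−1β libraries. Its IL−1β libraries lay closer together than those of Mmp3. Both genes were chosen for their likeness over these same 6 values, so their fold changes are set by the choice and were not tested. Mmp9 and Mmp13 were 1.06 and 1.40 log2 units from Mmp3. The distances to Mmp2, Mmp14 and Timp1 were at least 11.8, which the difference in fold change sets.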

How the data were processed

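Polyadenylated RNA of rat tenocytes (3 control and 3 IL−1β libraries) was sequenced from both fragment ends. The authors deposited FPKM values, 1 column per library, from the pipeline of a sequencing company. The submitters' processing notes name HISAT2 and featureCounts, and their versions, the genome build, the annotation and the strand setting are not given in the sources used here. Division by gene length and depth is part of the values, so counting error had to be recovered from them.

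Each value is a whole number of reads times a constant of gene and library. Ratios of low values gave the relative depths, the condition of whole-base gene lengths gave the absolute depth, and all 19133 genes then came out as whole reads within 0.02 read (Python 3.11.15, numpy 2.4.6, pandas 2.3.3). The procedure was tested on simulated data.

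FPKM values were divided by median-of-ratios size factors (0.972 to 1.036). Two-sided tests used limma 3.58.1 in R 4.3.3 with an intensity trend and no block, on genes reaching 0.5 FPKM in 3 or more libraries, and the fit was tested on simulated data. The study's own test models raw counts, and the deposited unit is FPKM. That test was not run on the recovered reads either, for which limma-voom was the alternative.

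The 6 genes and the tests were chosen with earlier results of these data known. The rule for named genes was the 6 members and the tested gene nearest to each called member. Lists of other proteases, inhibitors and cell type markers were planned but not run, because 0 Ensembl identifiers are paired with symbols in the RefSeq gene table used here. Symbols of the members were supplied with their identifiers. Alternatives were other pseudocounts, filters and scalings, TREAT, no trend, the replicate block, each library left out, and limma-voom on the recovered reads. Figures were drawn with matplotlib 3.10.9.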

Additional observations from a re-analysis of the deposited data

How the results depend on the processing

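All 6 genes kept their direction under each of the 16 alternatives. The call by both thresholds together stayed the same, made for Mmp3, Mmp9 and Mmp13 and not made for Mmp2, Mmp14 and Timp1. The kept direction adds no support where it was set in advance. TREAT, the block, the fit without a trend and the other filters reuse the same estimate. Leaving out a library could not reverse groups that do not overlap. With the filter of 1 FPKM, Mmp9, like Mmp13, passed through its IL−1β libraries alone. The adjusted p alone was under 0.05 for each gene in the 15 alternatives other than TREAT, at most 0.0025 (Mmp14). With TREAT, which tests against a 2-fold change, it was 1.0 for Mmp2, Mmp14 and Timp1. Leaving out each library in turn, the log2 fold change ranged from 8.07 to 8.58 for Mmp3, 7.55 to 7.98 for Mmp9, 7.21 to 7.87 for Mmp13, 0.59 to 0.67 for Mmp2, 0.44 to 0.50 for Mmp14 and 0.76 to 0.81 for Timp1. Under the other alternatives it ranged from 7.59 to 8.46, 6.75 to 7.95, 5.89 to 7.98, 0.57 to 0.68, 0.39 to 0.53 and 0.69 to 0.84 in the same order. With limma-voom the SE was 0.67 for Mmp3, 0.52 for Mmp9 and 1.24 for Mmp13, against 0.23, 0.23 and 0.32 in the main fit. For Mmp2, Mmp14 and Timp1 it was slightly smaller than in the main fit. For the ratios to Timp1 the alternatives were the recovered reads, which give the same fold by construction, and each library left out. With a library left out, the fold ranged from 169 to 238 for Mmp3, 123 to 164 for Mmp9 and 116 to 180 for Mmp13. It ranged from 0.87 to 0.91 for Mmp2 and 0.79 to 0.83 for Mmp14. The number of genes past both thresholds was 1078, of which 666 were higher. It was 697 with a pseudocount of 1, which shrinks the fold changes of low genes, and 520 with TREAT, which by construction calls fewer.

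Same-numbered libraries of the groups deviated together only weakly (r = 0.094, 0.021 and 0.034 for numbers 1, 2 and 3 across genes), and no source says that they share an animal or culture. With the replicate block 1080 genes passed, and the call of none of the 6 genes changed (adjusted p = 1.4e-05 for Mmp3, 4.4e-06 for Mmp9, 1.2e-05 for Mmp13, 0.00088 for Mmp2, 0.00096 for Mmp14 and 0.00029 for Timp1). The block lowered the SE of Mmp9 from 0.23 to 0.10 and that of Mmp13 from 0.32 to 0.15. It lowered the SE of Mmp3, Mmp2 and Mmp14 less and raised that of Timp1 slightly. Depth limits the control values of Mmp13, which rest on 22 to 39 reads.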
